A study of Macaca mulatta with 19 samples.

Results

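The genes described here are 10 markers of cytotoxic and T lymphocytes, GZMB, GZMH, NKG7, CD2, CD8A, CD3G, CD247, CD48, ITGAL and IRF4, measured in granulosa cells of rhesus macaques. Their rows were found by symbol, each symbol matched 1 of the 32386 genes counted, and all 10 were abundant enough to be tested. The set of 10 was chosen with earlier results of these data known. RNA was sequenced from the luteinized granulosa cells of 19 follicles, each the naturally selected periovulatory follicle of a female in a controlled ovulation cycle. The study asked how long exposure to testosterone, to a fatty diet or to both bears on the oocyte and on the granulosa cells around it. Each library is 1 animal, and the labels name neither a batch nor a sort or gate of the aspirated cells.

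All 19 animals carried implants from about the time of menarche and were sampled after roughly 3.5 years. The WSD+T group (6 libraries) had testosterone implants and a Western-style diet (WSD), the WSD+C group (5) cholesterol implants and the same diet, the Chow+T group (4) testosterone implants and standard chow, and the Chow+C group (4) cholesterol implants and chow. The labels also give the state of the oocyte in the same follicle: degenerating (6 libraries), metaphase II (MII, 4), metaphase I (MI, 8) or germinal vesicle (GV, 1). Both WSD groups together hold 5 of the 6 degenerating oocytes (WSD+T 3, 4 and 6, and WSD+C 4 and 5), Chow+T 1 is the remaining one, and Chow+C has none. Among the classes compared, Chow+T has no MI library, so the WSD groups alone hold both degenerating and MI oocytes. Oocyte class and diet can therefore only partly be told apart.

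A T cell recognises antigen through its receptor, whose signal runs through the CD3 chains (CD3G among them) and the zeta chain CD247. CD8A marks cytotoxic T cells and, in macaques, most natural killer cells, which kill by releasing granzymes such as GZMB and GZMH from granules. CD2, CD48 and the LFA-1 integrin chain ITGAL hold leukocytes to their partners, and ITGAL, CD48 and the transcription factor IRF4 are also used by myeloid and B cells. In bulk RNA, fewer cells of a type and less RNA per cell cannot be told apart.

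Gene counts per library ranged from 28832132 to 56385679, and levels are given as CPM, counts scaled to a common library size that TMM adjusted. Dividing 3 counts by the scaled library size gives 0.0577 to 0.112 CPM, the level that a count of 0 still allows. WSD+C 4 and WSD+T 6 stood apart from the other libraries, and results that rest on them are given with and without them. In WSD+C 4 the 8 measured granulosa cell genes summed to 741 CPM, against 4804 to 14640 CPM in the other 18 libraries, while 5 red cell genes summed to 101680 CPM, against 7.78 to 2724 CPM. The same library had 2621 CPM over 5 smooth muscle genes and 231 CPM over 8 oocyte genes, against at most 173 and 18.4 CPM elsewhere. In WSD+T 6 the 12 measured macrophage genes summed to 2841 CPM, against 367 CPM in WSD+C 4 and 11.5 to 156 CPM in the rest. The part of red cells, macrophages or fewer granulosa cells in the results below was not tested.

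WSD+C 4 had the highest level of all 10 genes and alone held 38.2% (IRF4) to 86.7% (CD8A) of the CPM that a gene summed to over the 19 libraries. In WSD+C 4 all 10 genes reached 1 CPM, in WSD+T 6 8 did, in WSD+T 3 7 and in WSD+C 5 4. These 4 libraries all came from follicles with a degenerating oocyte. The other 15 libraries had 0 to 3 of the genes at 1 CPM, the 3 being ITGAL, CD48 and IRF4 in Chow+T 2.

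**Figure D1:**
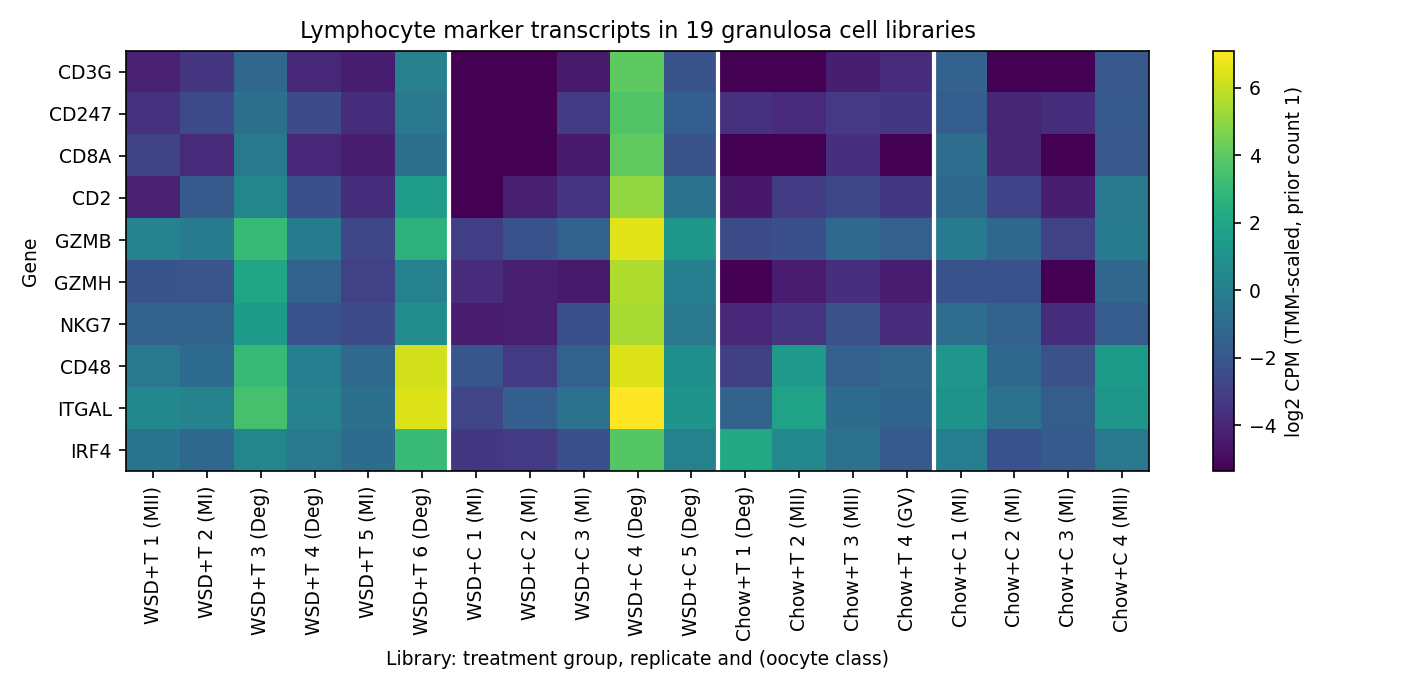
Level of each marker gene (vertical axis) in each library (horizontal axis, by treatment group with the oocyte class in brackets) as log2 CPM with a prior count of 1. WSD+C 4 is bright for all 10 genes. WSD+T 6 is bright for CD48 and ITGAL, in between for IRF4 and GZMB, and darker for GZMH, NKG7, CD2 and the T cell receptor genes.

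CD3G, the gamma chain of CD3, was at 15.8 CPM (668 counts) in WSD+C 4 and at or below 1.005 CPM everywhere else. Its next highest levels were 1.005 CPM (38 counts) in WSD+T 6, 0.391 CPM (20 counts) in WSD+T 3, 0.347 CPM (13 counts) in Chow+C 1 and 0.230 CPM (10 counts) in Chow+C 4. It had 0 counts in 6 libraries, WSD+C 1 and 2, Chow+T 1 and 2, and Chow+C 2 and 3. The 4 Chow+T libraries reached at most 0.0484 CPM and so stayed below Chow+C 1 and Chow+C 4. Those Chow+C libraries also had the most beta globin (HBB) after WSD+C 4, at 2426 and 2694 CPM.

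CD247, the zeta chain that carries the receptor's signal into the cell, was at 13.2 CPM in WSD+C 4, with 0.740 CPM for WSD+T 6 and 0.567 CPM for WSD+T 3, and at 0.298 CPM or less in the other 16. CD8A, the alpha chain of the CD8 co-receptor, followed with 16.7 CPM in WSD+C 4, with 0.743 CPM for WSD+T 3 and 0.555 CPM for WSD+T 6. Next came Chow+C 1 with 0.507 CPM, and 6 libraries had no CD8A count. CD2, an adhesion receptor of T and natural killer cells, was at 33.5 CPM in WSD+C 4, with 2.86 CPM for WSD+T 6 and 1.23 CPM for WSD+T 3, and at 0.782 CPM or less elsewhere. For these 4 genes WSD+C 4 was 11.7 to 22.5 times as high as the next library.

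The cytotoxic granule genes put WSD+T 3, not WSD+T 6, second. GZMB, the protease that starts apoptosis in a target cell, was at 93.2 CPM in WSD+C 4, and WSD+T 3 had 8.25 CPM, WSD+T 6 had 6.14 CPM and WSD+C 5 had 2.31 CPM. In the other 15 libraries it was between 0.0976 and 1.10 CPM, with at least 4 counts in every one. GZMH, a granzyme of natural killer and cytotoxic T cells, reached 48.1 CPM in WSD+C 4, while WSD+T 3 had 4.05 CPM, WSD+T 6 had 1.06 CPM and WSD+C 5 had 0.992 CPM, and it had 0 counts in Chow+T 1 and Chow+C 3. NKG7, a membrane protein of cytotoxic granules, stood at 43.9 CPM in WSD+C 4, where WSD+T 3 had 2.66 CPM, WSD+T 6 had 1.64 CPM and WSD+C 5 had 0.744 CPM, and at 0.507 CPM or less elsewhere.

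The adhesion genes shared with other leukocytes put WSD+T 6 far above WSD+T 3, and WSD+C 4 was 1.18 (CD48) and 1.59 (ITGAL) times as high as WSD+T 6. CD48, a ligand of CD2 family receptors, was at 87.5 CPM in WSD+C 4, with 74.3 CPM for WSD+T 6 and 8.19 CPM for WSD+T 3, and between 0.0810 and 2.67 CPM in the rest. ITGAL, the alpha chain of LFA-1, was at 136 CPM in WSD+C 4, with 85.6 CPM for WSD+T 6 and 10.8 CPM for WSD+T 3. It was next highest in Chow+T 2, at 3.53 CPM (159 counts), a library with no CD3G and no CD8A count and with 156 CPM over the macrophage genes.

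IRF4, which T, B and some myeloid cells use on activation, was at 13.7 CPM in WSD+C 4 and 8.30 CPM in WSD+T 6, and the library next in order was Chow+T 1, with 4.63 CPM (236 counts). Chow+T 1 was at the low end for the other markers, with 0 counts of CD3G, CD8A and GZMH, 1 count of CD2 and 5 of CD48. WSD+T 3 had 1.19 CPM of IRF4 and Chow+T 2 1.40 CPM, and the other 14 libraries had 0.0732 to 1.07 CPM.

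Counts of a pair of genes within a library show the same split without any scaling between libraries. CD3G made up 10.4% of the CD3G and ITGAL counts in WSD+C 4 (exact 95% interval 9.63 to 11.1%) but 1.16% in WSD+T 6 (0.822 to 1.59%) and 3.48% in WSD+T 3 (2.14 to 5.33%). WSD+C 5 (8.70%, 3.83 to 16.4%), Chow+C 1 (14.8%, 8.11 to 23.9%) and Chow+C 4 (9.01%, 4.41 to 15.9%) had shares whose wider intervals include that of WSD+C 4. Every library but WSD+T 3, WSD+T 6 and Chow+T 2 had an interval that includes 10.4%. Many of those intervals rest on few counts. In Chow+T 2 the share was 0% of 159 counts, with an upper bound of 2.29%. These intervals cover counting error only, since reads carry no molecular identifiers.

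GZMB gave 40.6% of the GZMB and ITGAL counts in WSD+C 4 (39.6 to 41.6%), 43.2% in WSD+T 3 (40.1 to 46.4%) and 52.5% in WSD+C 5 (44.9 to 60.1%), but 6.69% in WSD+T 6 (5.88 to 7.57%) and 4.79% in Chow+T 2 (2.09 to 9.22%). Against CD3G, GZMB was alike in both outstanding libraries: it gave 85.5% of the GZMB and CD3G counts in WSD+C 4 (84.5 to 86.5%) and 85.9% in WSD+T 6 (81.2 to 89.8%), with 95.5% in WSD+T 3 (93.1 to 97.2%). WSD+T 6 was thus low in T cell receptor and granule transcripts alike relative to ITGAL. The GZMB share against CD3G in WSD+T 3 was not particular to it, with 97.4% in WSD+T 1 and 95.6% in WSD+T 4. That share was 92.1% in WSD+C 5, but 69.8% in Chow+C 1 and 78.3% in Chow+C 4. Within the granule genes, GZMH gave 34.0% of the GZMH and GZMB counts in WSD+C 4 (32.8 to 35.2%) and 32.9% in WSD+T 3 (29.2 to 36.7%), but 14.7% in WSD+T 6 (10.7 to 19.5%).

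In the 3 libraries richest in ITGAL, IRF4 gave close shares: 9.16% of the IRF4 and ITGAL counts in WSD+C 4 (8.46 to 9.89%), 8.84% in WSD+T 6 (7.93 to 9.82%) and 9.92% in WSD+T 3 (7.67 to 12.6%). It gave 28.4% in Chow+T 2 (22.5 to 34.8%), the library next in ITGAL, and 92.9% in Chow+T 1 (89.0 to 95.7%). These pairs were chosen after the levels had been seen, and they are a description of single libraries.

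**Figure D2:**
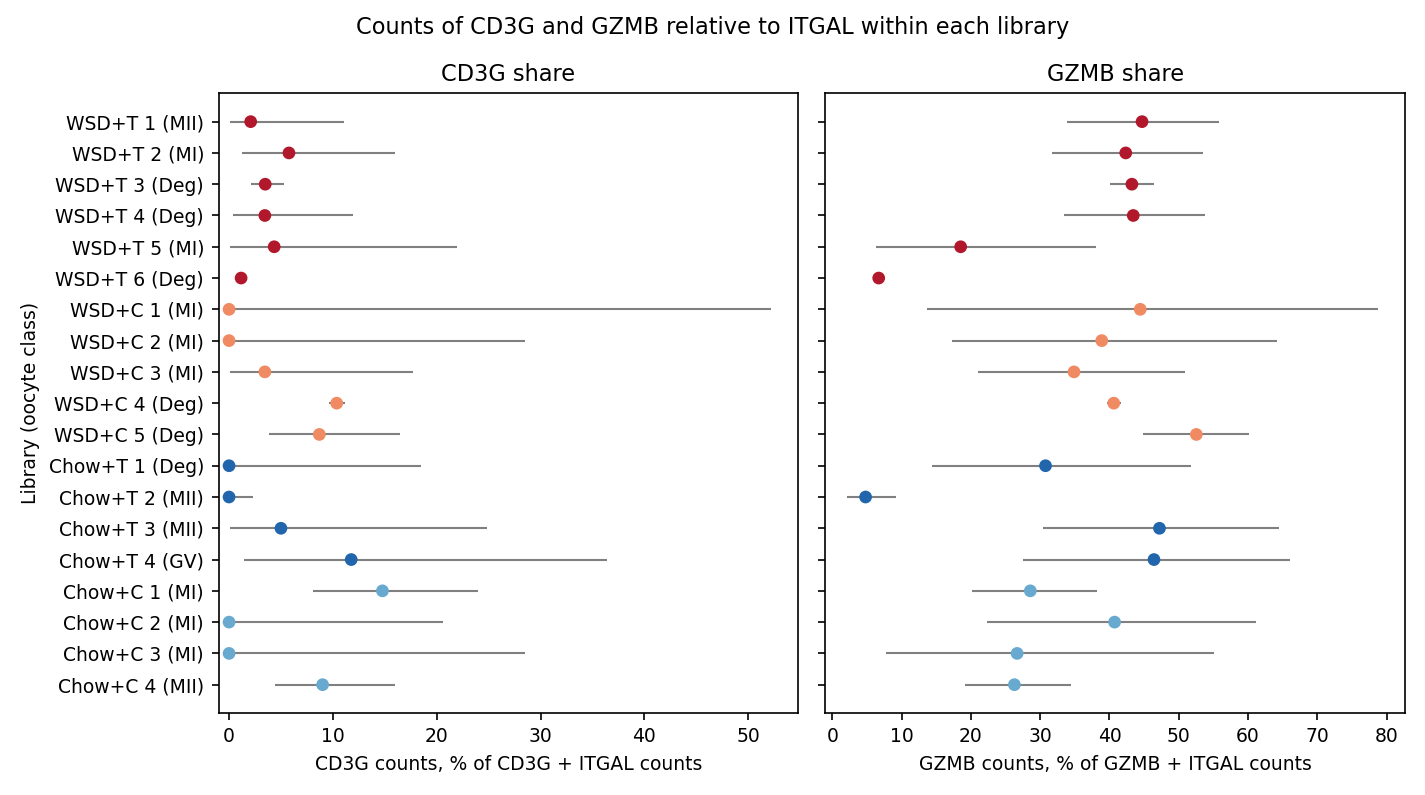
Counts of CD3G (left) and of GZMB (right) as a percentage of their sum with ITGAL counts, for each library (vertical axis, with oocyte class), as points with exact 95% intervals. WSD+T 6 and Chow+T 2 sit at the low end in both panels, at 1.16% and 0% for CD3G and at 6.69% and 4.79% for GZMB. WSD+C 4 is at 10.4% and 40.6%. The CD3G share is also 0% in WSD+C 1 and 2, Chow+T 1, and Chow+C 2 and 3, with wider intervals.

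Libraries from follicles with a degenerating oocyte had higher fitted levels of all 10 genes than those with an MI oocyte, by 4.22 to 6.38 on the log2 scale with a median of 5.52, against a median of 0.02 over the 14976 genes tested, of which 52% lay above 0. None passed an adjusted p of 0.05 in edgeR's quasi-likelihood test with treatment group as a term, and neither did any other gene (0% called). All 10 had an unadjusted p under 0.05, as did 14.3% of all genes tested, and the smallest adjusted p among the 10 was 0.164. Levels of the 10 genes rose and fell together across libraries, so counts of them are not independent observations, here and below. The classes overlapped for every one of the 10 (0.0935% of genes tested did not overlap), and Chow+T 1 lay within the range of the MI libraries for all of them but IRF4.

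CD3G ran from 0 to 15.8 CPM with a median of 0.295 CPM in the 6 degenerating libraries, and from 0 to 0.347 CPM with a median of 0.0108 CPM in the 8 MI libraries. Its fitted difference was 5.79 ± 1.69 (log2, SE) with an adjusted p of 0.169 in edgeR. GZMB ran from 0.157 to 93.2 CPM with a median of 4.22 CPM in the degenerating libraries, and from 0.0976 to 0.840 CPM with a median of 0.256 CPM in the MI libraries, a difference of 5.01 ± 1.29. CD48 ran from 0.0981 to 87.5 CPM with a median of 4.99 CPM in the degenerating libraries, and from 0.0810 to 2.19 CPM with a median of 0.366 CPM in the MI libraries, a difference of 6.38 ± 1.57.

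IRF4 had the smallest p of the 10 (edgeR, unadjusted p = 0.000298, adjusted p = 0.164). It ran from 0.731 to 13.7 CPM with a median of 2.91 CPM in the degenerating libraries, and from 0.0732 to 0.987 CPM with a median of 0.222 CPM in the MI libraries, a difference of 4.22 ± 0.90. Its classes overlapped only through WSD+T 4, at 0.731 CPM, which lay below Chow+C 1, at 0.987 CPM. The remaining fitted differences were 5.71 ± 1.50 for GZMH, 4.55 ± 1.51 for NKG7, 5.33 ± 1.57 for CD2, 5.79 ± 1.79 for CD8A, 4.48 ± 1.32 for CD247 and 5.96 ± 1.49 for ITGAL.

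**Figure D3:**
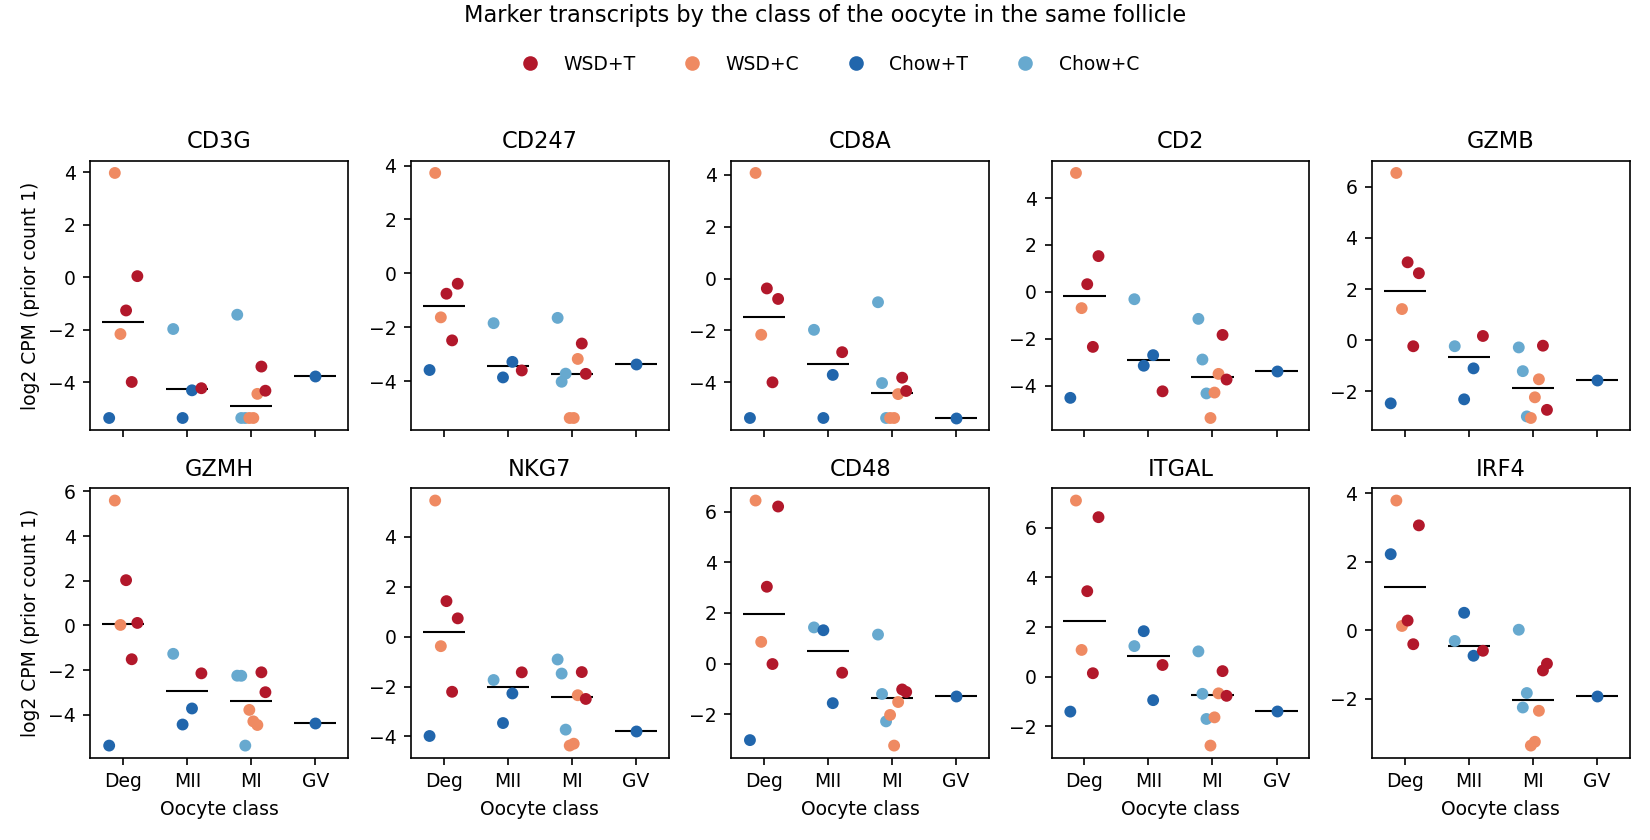
Level of each gene in log2 CPM with a prior count of 1 (vertical axis) by the class of the oocyte in the same follicle (horizontal axis, Deg for degenerating), with points for libraries, coloured by treatment group, and a bar for the class median. Degenerating libraries spread from the highest point of each panel down to the level of the MI libraries, and Chow+T 1 is high for IRF4 alone.

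The call in this comparison depended on the tool and on single libraries. DESeq2 on the same genes called all 10, with adjusted p from 1.62e-05 (CD48) to 0.00924 (CD3G), among 5.35% of genes called (801 genes). Without WSD+C 4 and WSD+T 6 DESeq2 called none of the 10 and 5 genes in all (0.0342%), the smallest adjusted p among the 10 being 0.113 for GZMH. In edgeR without those libraries, CD3G and CD8A no longer had enough counts to be tested, and the other 8 differed by 2.23 to 3.89 with a median of 2.53. All 8 had an unadjusted p under 0.05, against 4% of all genes, at an adjusted p of 0.971.

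Leaving out Chow+T 1 instead gave edgeR calls for GZMB, GZMH, CD48, ITGAL and IRF4 (adjusted p 0.0461 to 0.0477, with 1.51% of genes called), and dropping the treatment term gave calls for 9 of the 10, all but CD8A, with 3.83% of genes called. The median fitted difference was 3.22 without WSD+C 4 alone. In the WSD libraries alone it was 6.02, with all 10 genes above 0 and none called in edgeR.

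The same order held within WSD+C and in part within WSD+T. In WSD+C both degenerating libraries lay above all 3 MI libraries for 10 of the 10 genes, which was true of 16.7% of the genes tested. Since the 10 genes vary together, this count is not 10 separate observations. GZMB, for example, had 93.2 and 2.31 CPM in the degenerating libraries WSD+C 4 and 5, against 0.0976, 0.189 and 0.323 CPM in the MI libraries WSD+C 1, 2 and 3. GZMH had 48.1 and 0.992 CPM in the degenerating ones, against 0.0488, 0.0270 and 0.0216 CPM in the MI ones. In WSD+T all 3 degenerating libraries lay above both MI libraries for 4 of the 10 genes, GZMH, CD247, CD48 and IRF4, and 13.2% of the genes tested behaved so. WSD+T 4 was the degenerating library at MI level for the other genes: its CD3G was 0.0385 CPM, with 0.391 and 1.005 CPM in WSD+T 3 and 6, against 0.0700 and 0.0255 CPM in the MI libraries WSD+T 2 and 5.

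MII libraries had fitted levels above MI ones for all 10 genes (49% of all genes), with a median difference of 2.36. That median was 1.21 without Chow+T 1, 3.61 without Chow+C 4, 0.79 without the treatment term and 1.30 in the WSD libraries alone, where 9 of the 10 were above 0. None of the 10 had an unadjusted p under 0.05 in edgeR (3.91% of all genes did), and every adjusted p was 0.9995. GZMB, with the smallest p, was at 1.10, 0.178, 0.443 and 0.828 CPM in the MII libraries WSD+T 1, Chow+T 2, Chow+T 3 and Chow+C 4, against 0.0976 to 0.840 CPM with a median of 0.256 CPM in the MI libraries, and its difference was 2.52 with an interval from -0.51 to 5.55. Degenerating against MII libraries differed by a median of 2.98, above 0 for all 10 genes (54.6% of all genes), with an unadjusted p under 0.05 for IRF4 alone of the 10 (3.38% of all genes). IRF4 was at 0.637, 1.40, 0.573 and 0.782 CPM in the 4 MII libraries, and its difference was 2.95 ± 1.09 (edgeR, adjusted p = 0.962). The count of the 10 with an unadjusted p under 0.05 was 9 in DESeq2 (8.03% of all genes), 10 without the treatment term (10.4%, median 4.73) and 4 without Chow+T 1 (6.38%, median 4.39). The median was 1.72 without WSD+C 4, 1.97 without WSD+T 1 and 1.80 without Chow+C 4, and no member was called in any of these fits.

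None of the 10 genes was called in any of the 6 treatment comparisons by edgeR or by DESeq2 (edgeR called 0% of the 15019 genes in each). WSD+C against Chow+C gave the largest fitted values, 2.44 to 5.66 with a median of 4.37 and all above 0 (52.6% of all genes were), and 7 of the 10 genes had an unadjusted p under 0.05, against 5.08% of all genes. The count was 3 without Chow+C 2 (1.98% of all genes) or without Chow+C 3 (4.02%). It was 8 without any one of WSD+C 1, 2, 3 and 5 (5.18%, 5.08%, 5.66% and 6.95% in that order). The values rest on 1 library: GZMB was at 0.0976, 0.189, 0.323, 93.2 and 2.31 CPM in WSD+C 1 to 5, against 0.800, 0.409, 0.103 and 0.828 CPM in Chow+C 1 to 4. Without WSD+C 4 the median difference was -0.70 over the 8 genes still tested, 6 of the 8 were below 0, and none had an unadjusted p under 0.05 (5.99% of all genes). With oocyte class as a term it was -0.050.

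WSD+T against WSD+C had fitted differences below 0 for all 10 genes (50% of all genes), with a median of -3.20, and 5 of them (GZMH, NKG7, CD8A, CD3G and CD247) had an unadjusted p under 0.05, against 3.86% of all genes. That count was 0 without any one of WSD+T 1, 2, 4 and 5, with 3.72%, 3.68%, 3.8% and 3.4% of all genes in that order. Leaving out WSD+C 1, 2 or 3 raised it to 7 (4.35%, 5.25% and 4.91% of all genes), and leaving out WSD+C 5 to 6 (4.69%). CD3G was at 0.0289, 0.0700, 0.391, 0.0385, 0.0255 and 1.005 CPM in WSD+T 1 to 6 (median 0.0542 CPM), against 0, 0, 0.0216, 15.8 and 0.198 CPM in WSD+C 1 to 5. The other 4 WSD+C libraries thus lay within or below the WSD+T range. Without WSD+C 4 the sign turned, with a median of 2.06 over the 8 genes tested and 3 of the 8 at an unadjusted p under 0.05 (4.75% of all genes). Without WSD+T 6 as well the median was 1.61, with 0 of the 8 under 0.05 (1.54% of all genes).

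Set against Chow+T, WSD+T had a median difference of 3.53, with all 10 genes above 0 (55% of all genes), and only GZMH had an unadjusted p under 0.05, against 4.97% of all genes. GZMH was at 0.203, 0.210, 4.05, 0.327, 0.102 and 1.06 CPM in WSD+T 1 to 6 (median 0.268 CPM), against 0, 0.0222, 0.0521 and 0.0242 CPM in Chow+T 1 to 4. It was the only one of the 10 whose groups did not overlap here (1.17% of genes tested did not), its difference was 5.23 ± 2.18, and the Chow+T side rests on 4 counts. The count with an unadjusted p under 0.05 was 6 of the 8 genes tested without WSD+C 4 (8.51% of all genes) and 3 of 8 without both outstanding libraries (5.78%), where the median was 1.89.

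WSD+T against Chow+C had a median of 1.71 with all 10 above 0 (49.9% of all genes), and Chow+T against Chow+C one of -1.54 with 9 below 0 (51.8%). In neither did any of the 10 reach an unadjusted p of 0.05, against 6.75% and 7.18% of all genes. With oocyte class as a term WSD+T against Chow+C turned to a median of -1.11 with all 10 below 0, and Chow+T against Chow+C had one of -3.44 with all 10 below 0 and 3 at an unadjusted p under 0.05 (5.32% of all genes). Without WSD+C 4 WSD+T against Chow+C had 3 of 8 genes under 0.05 (9.98% of all genes) and a median of 2.09, and without WSD+T 6 a median of 0.93. In Chow+T against Chow+C, IRF4 was the exception to the negative values, at 1.62 ± 1.46, with 4.63, 1.40, 0.573 and 0.242 CPM in Chow+T 1 to 4, against 0.987, 0.186, 0.257 and 0.782 CPM in Chow+C 1 to 4. Its difference was 0.42 without Chow+T 1 and -0.31 with oocyte class as a term. The testosterone by diet interaction had a median of -0.90, against 0.01 over all genes, with 8 of the 10 below 0. It had none of the 10 with an unadjusted p under 0.05 (4.52% of all genes). It turned to a median of 3.95 without WSD+C 4, with all 8 genes tested above 0 and 5 at an unadjusted p under 0.05 (8.32% of all genes), and to 1.93 with oocyte class as a term, with all 10 above 0. None of these fits called a member. These comparisons share control libraries, so their values are not independent of each other.

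**Figure D4:**
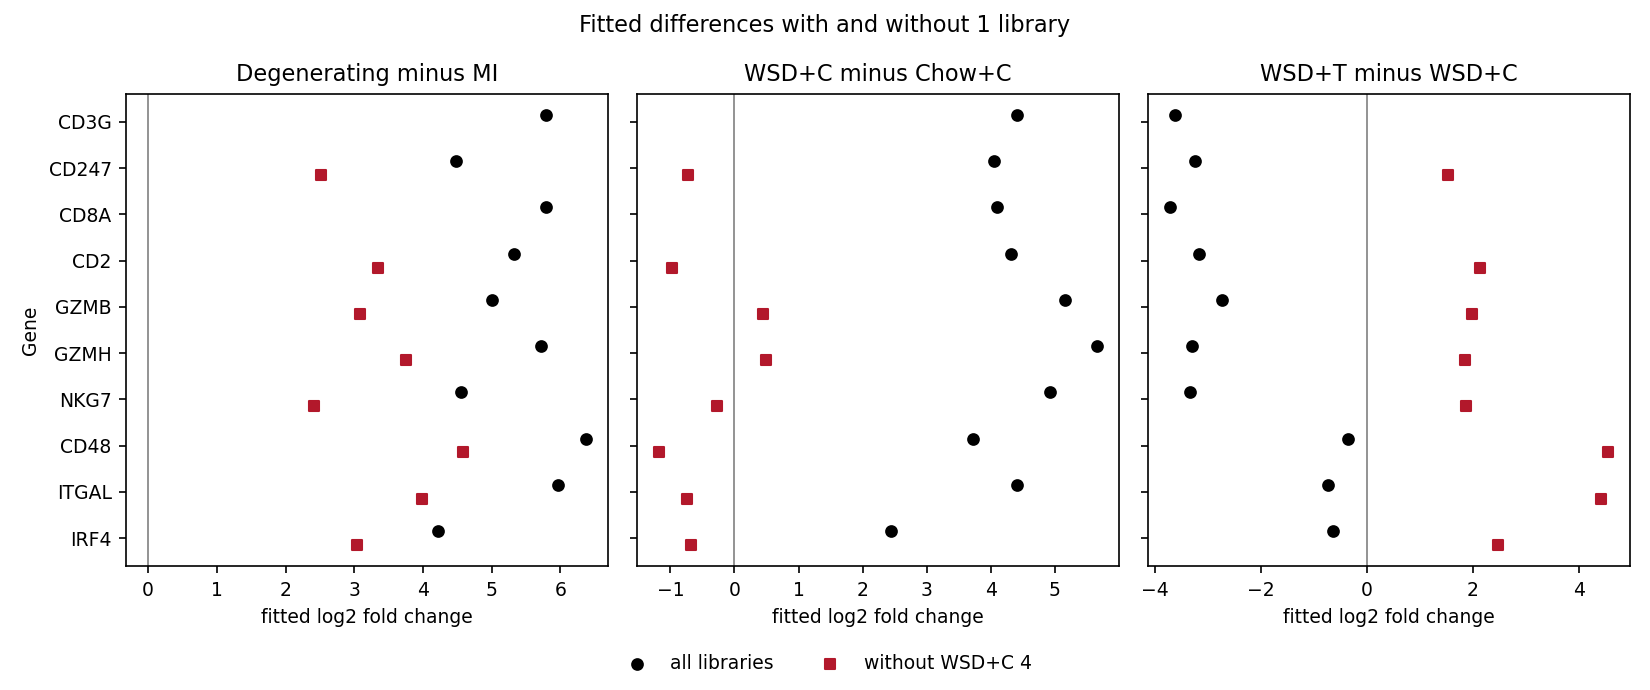
Fitted log2 fold change (horizontal axis) of each gene (vertical axis) in 3 comparisons, with all libraries (black circles) and without WSD+C 4 (red squares; CD3G and CD8A then had too few counts to be tested). Degenerating minus MI stays above 0 with a lower median of 3.22, WSD+C minus Chow+C moves to a median of -0.70, and WSD+T minus WSD+C to one of 2.06.

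The other genes of T cells were highest in the same library as the receptor genes. Of a list of 18 genes of the T cell receptor complex and its signalling, 17 were found and 12 tested, edgeR called none in either direction in any comparison, and 16 of the 17 were highest in WSD+C 4. In degenerating against MI libraries all 12 had an unadjusted p under 0.05 in edgeR (14.3% of all genes), with a median difference of 5.11. DESeq2 called 10 of the 12 (5.35% of all genes), all higher. The CD3 chains CD3D and CD3E were at 28.5 and 71.3 CPM in WSD+C 4, at 1.61 and 3.38 CPM in WSD+T 6 and at 0.919 and 2.11 CPM in WSD+T 3. CD8B, the beta chain found on T cells rather than natural killer cells, was at 7.78, 1.08 and 0.274 CPM in those libraries. The exception to the order was CD4, which macrophages also express, at 126 CPM in WSD+T 6 and 25.7 CPM in WSD+C 4.

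Of 16 further cytotoxic and natural killer genes, 13 were found and 9 tested. In edgeR none was called in either direction. In degenerating against MI libraries 7 of the 9 had an unadjusted p under 0.05 (median 3.70), against 14.3% of all genes. DESeq2 called 5 of the 9 there (5.35% of all genes), all higher, and 12 of the 13 were highest in WSD+C 4. TBX21, the T-bet factor of cytotoxic lymphocytes, had the smallest p, with a difference of 6.53 ± 1.36 (edgeR, adjusted p = 0.164). GZMA was at 9.29 CPM in WSD+C 4 and 1.88 CPM in WSD+T 3, but at 0.238 CPM in WSD+T 6, and it had too few counts to be tested. GNLY, a granule protein of cytotoxic lymphocytes, was at 37.9 CPM in WSD+C 4 and at least 3.78 CPM in every library. The gene of this list that was not highest in WSD+C 4 was highest in WSD+C 2, an MI library.

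Of 9 tested genes of T cell activation and cytokine receptors 9 had an unadjusted p under 0.05 in degenerating against MI libraries (median 4.10). So had 7 of 9 lymphocyte chemokine and receptor genes (3.65), against 14.3% of all genes, and again none was called in edgeR. In DESeq2 7 and 5 of them were called, all higher, against 5.35% of all genes. Genes of other leukocytes were high in the same libraries. In degenerating against MI libraries an unadjusted p under 0.05 (14.3% of all genes) was reached by 11 of 11 general leukocyte genes tested (median 5.20) and 12 of 12 macrophage genes (4.84). It was also reached by 8 of 10 B cell genes (3.85) and 5 of 5 neutrophil genes (4.24). No gene of these lists was called in edgeR. DESeq2 called 11, 7, 7 and 5 of these, all higher, with no adjusted p for 5 of the macrophage genes. Their part in the difference of the 10 genes was not tested. Without WSD+C 4 and WSD+T 6 DESeq2 called no gene of any of these lists (0.0342% of all genes). Of the general leukocyte genes 6 were highest in WSD+T 6 and 5 in WSD+C 4, the 12 macrophage genes were all highest in WSD+T 6, and 12 of 13 B cell genes were highest in WSD+C 4. PTPRC, the CD45 of all leukocytes, was at 351 CPM in WSD+C 4, with 133 CPM for WSD+T 6 and 37.8 CPM for WSD+T 3. The macrophage marker CD14 was at 38.0, 115 and 19.2 CPM in the same order. The B cell marker MS4A1 was at 18.5, 4.97 and 1.92 CPM.

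ITGB2, the beta chain that pairs with ITGAL, was at 230 CPM in WSD+C 4 and 184 CPM in WSD+T 6, and its difference between degenerating and MI libraries was 5.53 ± 1.57 (edgeR, adjusted p = 0.164). Of 10 genes listed with the CD2 family or as partners of LFA-1, 7 were tested. All 7 had an unadjusted p under 0.05 in this comparison (14.3% of all genes), 6 with values above 0 and 1 below (median 2.16). Of 5 measured transcription factors listed alongside IRF4, 4 were highest in WSD+T 6, and among the 4 tested the median was 3.84. Of the granulosa cell genes 7 of 8 had values below 0 (median -0.74), while 52% of all genes lay above 0. An unadjusted p under 0.05 was reached by 2 of the 8, against 14.3% of all genes.

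Across the 19 libraries the log2 CPM of the 10 genes rose and fell together, with Pearson correlations of 0.61 to 0.98 and a median of 0.90 over the 45 pairs. The highest was between CD48 and ITGAL (0.98) and the lowest between GZMH and IRF4 (0.61). Without WSD+C 4 and WSD+T 6 (17 libraries) they ran from 0.26 to 0.93 with a median of 0.80. The points share the libraries and their scaling, and the part of other leukocyte transcripts was not tested, so these values are given as a description.

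The genes most like the mean of CD3G, CD247, CD8A and CD2 over 19 libraries were LCK (r = 0.98), the kinase that starts the receptor's signal, CD3D (0.98), SIRPG (0.98), CD3E (0.97) and PYHIN1 (0.97). Those most like the mean of GZMB, GZMH and NKG7 were MYO1G (0.98), a myosin of blood cells, the activation marker CD69 (0.96), CLC (0.96), LCK (0.96) and SCML4 (0.96). CLC encodes the Charcot-Leyden crystal protein of eosinophils and basophils, and it was at 63.9 CPM in WSD+C 4, with 5.46 CPM for WSD+T 3 and 3.04 CPM for WSD+T 6. Without the 2 outstanding libraries CLC (0.92) was still among the 5 nearest to the granule mean, and so then was the eosinophil chemokine receptor CCR3 (0.92). IRF4, looked at alone after its levels had been seen, was most like GBP6 (0.87) and CFP (0.87).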

How the data were processed

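The authors deposited 1 table of raw counts of reads, with a row per gene and 19 library columns, all matched to a sample. Libraries were polyA-selected and non-directional, per the labels' protocols, so reads of an overlapping or antisense gene may be counted to its neighbour. Per the submitters' processing notes, Trimmomatic and STAR served for trimming and alignment. Their versions, the build and the annotation: not given in the sources used here. No coordinates or sequences are therefore printed. The table pairs 21539 of its identifiers with symbols, and 1383 more came from a reference table of gene names, which carried 8 of the 10 members under the same symbol.

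The tests ran in edgeR 4.0.16 (R 4.3.3), with filterByExpr (minimum count 10, total 15), TMM scaling, robust quasi-likelihood tests, two-sided, Benjamini-Hochberg adjustment over all genes tested and a threshold of 0.05. Treatment comparisons used 1 fit of 4 groups over 19 libraries, and oocyte comparisons 18 libraries with treatment group as a term, leaving out the single GV library. A standard error is left out where counts near 0 let the prior count move the fitted value. The tests were checked on simulated counts with no outlying library, so that check does not cover a signal held by single libraries. Alternatives were relative log expression (RLE) scaling, no filter, DESeq2 1.42.0, other model terms, the WSD libraries alone, CPM without TMM, and leaving out libraries. Named besides the members are partner genes set by list, at most 2 genes of smallest p per list, and the 5 genes of highest correlation. Members and lists were chosen with earlier results of these data known. Where counting shares are given, intervals are exact binomial (Clopper-Pearson) at 95%.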

Additional observations from a re-analysis of the deposited data

Results flagged for a closer look

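Within groups of 4 to 10 libraries, Dixon's test on log2 CPM (70 groups tested, of which chance alone marks about 1 in 20) picked out 4 values. ITGAL in Chow+T 2 was high within the Chow+T group, at 3.53 CPM against 0.495 CPM in the nearest library. IRF4 in WSD+T 6 was high within the WSD+T group, at 8.30 CPM against 1.19 CPM. CD8A in Chow+C 1 was high among the MI libraries, at 0.507 CPM against 0.0467 CPM. CD8A in Chow+T 3 was high within the Chow+T group, at 0.0521 CPM (2 counts) against 0, which is below the level that 3 counts would give. WSD+C 4, the highest library for all 10 genes, was not picked out in any group by this test.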

How the results depend on the processing

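No paired analysis was possible because the replicate numbers were given in accession order and pair nothing. With edgeR no gene was called in any comparison run under RLE scaling, without the filter on low counts, in the WSD libraries alone, with oocyte class as a term in the treatment comparisons, or without both outstanding libraries. DESeq2 called 5 genes in Chow+T against Chow+C, 3 in WSD+T against Chow+C, 4 in WSD+T against Chow+T, 3 in the interaction, 801 in degenerating against MI (10 members), 6 in MII against MI and 8 in degenerating against MII. The DESeq2 fit without WSD+C 4 and WSD+T 6 (added after the data were seen) called 5 genes and no member in degenerating against MI. Without a treatment term that comparison had 574 genes and 9 members called in edgeR. Leaving out 1 library at a time gave 0 to 226 genes and 0 to 5 members called in degenerating against MI (the highest without Chow+T 1), and 0 to 1 genes in degenerating against MII (1 without WSD+C 2). The cause of these differences was not tested.

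Of the members' fitted values none turned in sign under RLE scaling, without the filter, under DESeq2 or, for degenerating against MI, under any alternative run. CD3G and CD8A were not tested in every run: for degenerating against MI each had 14 of 18 leave-one-out fits. With oocyte class as a term these values turned: Chow+T against Chow+C gave -0.31 for IRF4. WSD+C against Chow+C gave -0.050 for the median, -0.79 for CD8A, -0.43 for CD3G, -1.17 for CD48, -0.29 for ITGAL and -0.90 for IRF4. WSD+T against Chow+C gave -1.11 for the median, -0.45 for GZMB, -0.73 for GZMH, -0.95 for NKG7, -1.62 for CD2, -3.40 for CD8A, -2.83 for CD3G, -1.61 for CD247, -1.27 for CD48, -0.51 for ITGAL and -0.65 for IRF4. IRF4 had 0.25 in WSD+T against WSD+C and -0.35 in WSD+T against Chow+T, and the interaction had a median of 1.93. Without both WSD+C 4 and WSD+T 6, where CD3G and CD8A could not be tested, these did: WSD+C against Chow+C gave -0.70 for the median, -0.26 for NKG7, -0.98 for CD2, -0.73 for CD247, -1.18 for CD48, -0.75 for ITGAL and -0.67 for IRF4. WSD+T against WSD+C gave 1.61 for the median, 1.62 for GZMB, 1.85 for GZMH, 1.61 for NKG7, 1.03 for CD2, 1.02 for CD247, 1.85 for CD48, 1.95 for ITGAL and 0.99 for IRF4. IRF4 had -1.30 in WSD+T against Chow+T, and the interaction had a median of 2.59. CD3G and CD8A could not be tested without WSD+C 4 either, so whether they turned there is not known. Leaving out 1 library at a time, the values that changed sign, most of them without WSD+C 4, ranged as follows. WSD+C against Chow+C ran from -0.98 to 5.14 for CD2, -0.73 to 4.48 for CD247, -1.18 to 4.25 for CD48, -0.67 to 2.85 for IRF4, -0.75 to 4.83 for ITGAL, -0.70 to 4.91 for the median and -0.27 to 5.33 for NKG7. WSD+T against WSD+C ran from -4.27 to 2.14 for CD2, -3.77 to 1.54 for CD247, -3.05 to 4.55 for CD48, -3.41 to 1.98 for GZMB, -4.69 to 1.86 for GZMH, -2.12 to 2.49 for IRF4, -3.21 to 4.43 for ITGAL, -3.52 to 2.06 for the median and -4.06 to 1.87 for NKG7. CD8A ran from -0.035 to 1.44 in WSD+T against Chow+C, IRF4 from -1.30 to 1.41 in WSD+T against Chow+T and ITGAL from -1.69 to 0.30 in Chow+T against Chow+C. The interaction's median ran from -2.24 to 3.95. The levels without TMM kept WSD+C 4 highest for all 10 genes. Depth limits CD3G and CD8A most, with 0 counts in 6 libraries each.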
